A study of Homo sapiens with 12 samples.

Results

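The 10 genes described here carry out vitamin D and retinoid (vitamin A) signalling and turnover, and they were picked by gene symbol from the 57500 genes of the count table. CYP24A1 was included for its pattern in the 2 colorectal lines and STRA6 for its pattern with TGF-β, so those values are given as a description with no test. The other members are CYP27B1, VDR, RXRA, CRABP2, RARA, RARB, RARG and CYP26A1. All 10 were matched, and all 10 passed the filter on low counts in each comparison. RNA was sequenced from 3 established human cancer cell lines, as 12 libraries, 3 biological replicates for each of 4 groups. The ovarian cancer line PEO4 was grown in RPMI 1640, either in control medium or with recombinant human TGF-β at 10 ng/mL for 6 days. SW480 comes from the primary colorectal tumour, and SW620 from a metastatic site, of 1 patient, and both were grown untreated in DMEM. All groups shared 10% fetal bovine serum, and the labels name no added vitamin D or retinoid. Each condition is represented by 1 line, so a difference between lines cannot be told apart from one between tumour sites, and PEO4 differs from the SW lines in line, tissue and medium together.

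Calcitriol, the active form of vitamin D, is made by the 1α-hydroxylase CYP27B1, binds the vitamin D receptor VDR, which pairs with the retinoid X receptor RXRA on DNA, and is broken down by the 24-hydroxylase CYP24A1. CYP24A1 is itself a classical VDR target, so the hormone raises the enzyme that removes it. Retinol is carried into cells through the membrane receptor STRA6 and oxidised to retinoic acid. CRABP2 delivers retinoic acid to the nuclear receptors RARA, RARB and RARG, which also pair with RXRA, and CYP26A1 degrades it. RARB and CYP26A1 are classical retinoic acid target genes.

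A pair of promoter sequences is shown because RARB and CYP26A1 were the members whose windows held a direct repeat of the receptor half-site. Both are classical retinoic acid target genes, while the classical VDR target CYP24A1 had no window to search. The RefSeq promoter table (GRCh38.p14) held windows for 7 of the 10 members, 18 in all, each from 250 bases before to 50 bases after a transcript start. CYP24A1, CYP27B1 and VDR were not among the 7. The windows were searched on both strands for 2 half-sites. A half-site was AGGTCA, its variant with a T that reads AGTTCA, the further form GGGTCA, or the last form searched, which is GGTTCA. The spacer was any 5 bases for DR5, any 3 bases for DR3 and any 2 bases for DR2. DR5 is the spacing known for the RAR pair with RXR, and DR3 that for the VDR pair with RXR. The 100 bases before the start are printed 5′ to 3′ on the plus strand, with the DR5 half-sites in capitals. The RARB window is chr3:25428163-25428262 and the CYP26A1 window is chr10:93073793-93073892.
RARB: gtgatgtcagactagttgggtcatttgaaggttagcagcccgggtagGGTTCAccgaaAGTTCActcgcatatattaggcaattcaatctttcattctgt
CYP26A1: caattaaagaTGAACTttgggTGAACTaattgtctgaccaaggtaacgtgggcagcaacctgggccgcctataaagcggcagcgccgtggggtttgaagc

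The RARB repeat lies 53 to 37 bases before the start, on the strand of the gene. The CYP26A1 repeat lies 90 to 74 bases before the start, on the opposite strand, where it reads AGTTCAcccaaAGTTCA. A DR5 of this form was found in 31 of all 35116 windows (0.0883%), and in 29 of 27305 genes (0.106%). None of the 7 members had a DR3 or DR2, which occurred in 0.0740% and 0.0399% of windows. Single half-sites were found in 6 of the 7 members, RARG being the exception, beside 43.7% of all genes in the table and 38.6% of all windows. Members have up to 5 windows each. DR5 half-sites contain the single half-site, so these counts overlap. A match describes the letters of these windows and is not a measured binding site.

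Library totals ran from 14.5 to 22.0 in units of 1e6 counts. Levels are given as CPM, counts per 1e6 counts of the library total after TMM scaling (trimmed mean of M values). Where no read was counted, as many as 3 counts remain possible, which is 0.136 to 0.206 CPM on unscaled totals. The intestinal factor CDX2 had 292 to 494 counts in the SW libraries and 1 to 3 in PEO4, and the Müllerian factor PAX8 had 9591 to 11577 counts in PEO4 and 634 to 1069 in the SW libraries. WT1, EMX2 and MUC16, further Müllerian markers, were also higher in every PEO4 library than in any SW library, and SOX17 was not, with 27 to 42 counts against 39 to 74. Of the other colorectal markers GPA33, LGALS4 and CDH17 stayed at or under 94 counts in every library, and VIL1 had 3152 to 5542 counts in SW620 against 345 to 633 in SW480. The leukocyte gene PTPRC had 36 to 51 counts in PEO4 control, 41 to 50 with TGF-β and 0 to 1 in SW480. In SW620 it had 4 to 108 counts (median 2.58 CPM), highest in replicate 3. CD3E and CD68 did not exceed 20 counts. The fibroblast gene LUM had 102 to 231 counts in SW620 and at most 11 elsewhere, DCN had at most 18 and PDGFRB at most 68. The part of VIL1, PTPRC and LUM in the differences between the SW lines was not tested. SW620 replicate 3 stood apart in genes of the PEO4 line: 5 genes with at least 50 CPM in PEO4 control and at most 3 counts in each other SW library had 7 to 23 counts there, 1.01% of their PEO4 level. At that share PEO4 reads would make up 20.3% of its 200 CRABP2 counts, 6.31% of its 379 RARG counts, 6.30% of its 19 CYP24A1 counts and 3.31% of its 907 RARA counts, and 28.1% of its single CYP26A1 count. In such bulk RNA, fewer expressing cells and less RNA per cell cannot be told apart.

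CYP24A1 (chr20:54153449-54173973, minus strand, GENCODE 29 on GRCh38, as for all gene positions here) had 71.5, 55.7 and 60.6 CPM in SW480 replicates 1, 2 and 3. In SW620 it had 0.627, 0.774 and 0.898 CPM, which are 13, 15 and 19 counts. PEO4 control had 10.0, 3.77 and 4.27 CPM, and PEO4 with TGF-β had 18.0, 15.4 and 17.2 CPM. No 2 groups overlapped, in the order SW480, PEO4 with TGF-β, PEO4 control and SW620. The level was 79.4-fold lower in SW620 than in SW480, a log2 fold change of -6.31 that ran from -6.43 to -6.15 over the alternatives. This is the value for which the gene was chosen.

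CYP27B1 (chr12:57762334-57768986, minus strand), the enzyme that makes calcitriol, was a low-level transcript in every group. It had 5.75, 7.79 and 6.32 CPM in SW480 and 5.16, 5.01 and 4.30 CPM in SW620. In PEO4 it had 9 to 17 counts in control and 9 to 14 with TGF-β, or 0.671 ± 0.259 and 0.579 ± 0.183 CPM (SD, n = 3). The 2 SW lines stood above all PEO4 libraries, and the PEO4 groups overlapped. Annotated METTL1 shares 107 exon bases (3.11%) on the same strand, with at most 467 counts in any library.

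VDR (chr12:47841537-47943048, minus strand) had 130, 78.2 and 129 CPM in SW480, 21.6, 18.5 and 27.0 CPM in SW620. It had 23.1, 17.1 and 22.2 CPM in PEO4 control and 47.3, 40.6 and 40.8 CPM with TGF-β. SW480 was highest and TGF-β-treated PEO4 second, while SW620 and PEO4 control overlapped. Its partner RXRA (chr9:134317098-134440585, plus strand) had 114, 90.1 and 114 CPM in SW480 and 55.9, 56.3 and 79.5 CPM in SW620. In PEO4 its level was 40.2 ± 3.47 CPM without and 35.8 ± 1.39 CPM with TGF-β (SD, n = 3), and those groups overlapped.

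Per annotated exonic kb, the ratio of the level of CYP24A1 to that of CYP27B1 was 8.42 ± 2.28 in SW480, 9.04 ± 6.85 in PEO4 control, 27.1 ± 8.86 with TGF-β and 0.140 ± 0.0382 in SW620 (SD, n = 3). RNA of the degrading enzyme thus lay above that of the synthesising one in all 9 libraries outside SW620 and below it in all 3 SW620 libraries. The ratio of VDR to RXRA per kb was 2.05 ± 0.303 in SW480, 2.34 ± 0.251 with TGF-β, 1.02 ± 0.194 in PEO4 control and 0.687 ± 0.0597 in SW620. The first ratio contains CYP24A1 and is therefore only a description in the SW lines.

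STRA6 (chr15:74179466-74212267, minus strand), the retinol carrier receptor, had 8.09, 6.85 and 5.16 CPM in PEO4 control and 34.4, 36.6 and 27.1 CPM with TGF-β. The 2 PEO4 groups did not overlap, and the level was 4.72-fold higher with TGF-β (log2 fold change 2.24, from 2.08 to 2.38 over the alternatives), which is the value that chose the gene. In SW480 it had 286, 344 and 314 CPM and in SW620 117, 124 and 152 CPM, so all SW libraries lay above all PEO4 libraries. CCDC33 shares 540 exon bases (7.02%) on the opposite strand, with at most 79 counts in any library.

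CRABP2 (chr1:156699606-156705816, minus strand) had 174, 220 and 202 CPM in untreated PEO4 and 78.0, 147 and 97.9 CPM after TGF-β. Its level was 78.8, 38.0 and 88.7 CPM in SW480 and 4.58, 4.54 and 9.45 CPM in SW620. PEO4 with TGF-β and SW480 overlapped, and SW620 was lowest. Per exonic kb CRABP2 was the most abundant member in PEO4 control (181 CPM per kb), PEO4 with TGF-β (97.7) and SW480 (62.3), and STRA6 was the most abundant in SW620 (17.0).

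Of the 3 retinoic acid receptors, RARA (chr17:40309192-40357643, plus strand) had 148 ± 14.5 CPM in control and 140 ± 26.3 CPM in TGF-β-treated PEO4, then 83.6 ± 14.5 CPM in SW480 and, lowest, 32.7 ± 9.87 CPM in SW620 (SD, n = 3). RARG (chr12:53210567-53232980, minus strand) had 118 ± 21.3, 120 ± 7.81, 37.8 ± 7.84 and 13.6 ± 3.75 CPM in the same order. RARB (chr3:25174332-25597932, plus strand) was far lower, with 3.49 ± 0.848, 2.88 ± 0.289, 1.43 ± 0.640 and 2.25 ± 0.412 CPM, and each group overlapped its neighbour in the order of levels. RARA-AS1 overlaps 556 exon bases (11.8%) of RARA on the opposite strand, with at most 180 counts, and strand use in counting is not given in the sources used here.

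CYP26A1 (chr10:93073475-93077890, plus strand), which breaks retinoic acid down, had 29, 21 and 25 counts in PEO4 control, 49, 74 and 56 with TGF-β, 130, 58 and 118 in SW480 and 4, 6 and 1 in SW620. The group means were 1.39 ± 0.251, 3.23 ± 0.815, 5.32 ± 1.77 and 0.183 ± 0.131 CPM (SD, n = 3). SW480 and PEO4 with TGF-β overlapped, PEO4 control lay below both, and SW620 lay below every other library. AL358613.3 is annotated over 750 exon bases (25.2%) of this gene on the same strand. It is not among the genes of the count table. How reads from the shared bases were counted is not known, so the CYP26A1 counts are uncertain.

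**Figure D1:**
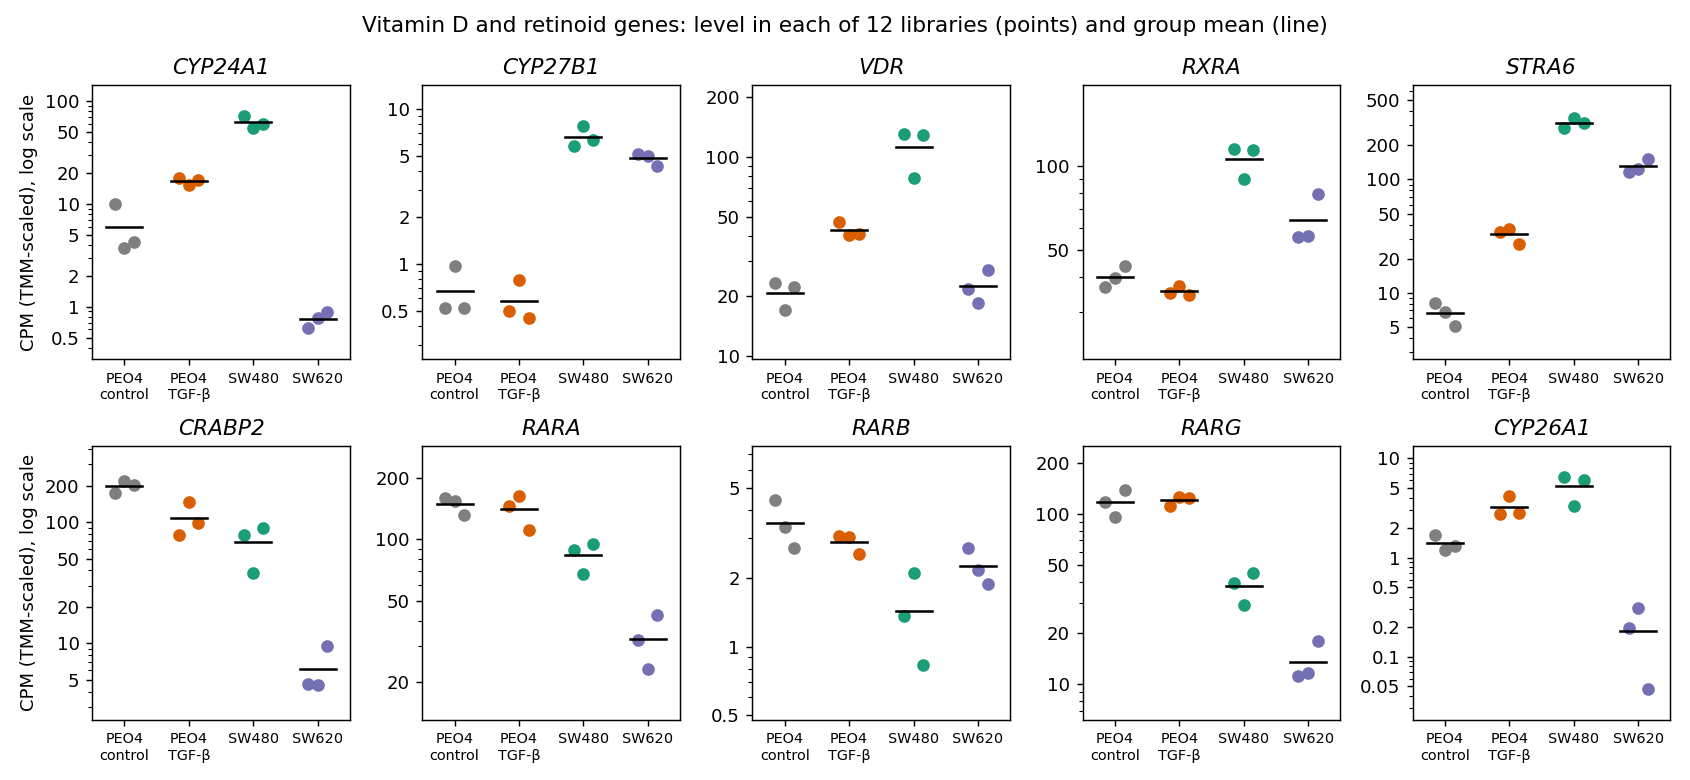
Level of the 10 genes in each of the 12 libraries (points, CPM on TMM-scaled totals, log axis) with the group mean as a line. SW620 lies below all other groups for CYP24A1, CRABP2, RARA, RARG and CYP26A1, while RARB overlaps between neighbouring groups.

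The receptors also differed in their make-up. As a share of the summed CPM per exonic kb of the 3 RAR genes, RARA held 56.8% ± 6.23 in untreated and 54.7% ± 5.28 in TGF-β-treated PEO4, and 69.5% ± 0.426 in SW480 and 67.5% ± 3.77 in SW620 (SD, n = 3). RARG held 41.5% ± 6.50, 43.8% ± 5.31, 28.8% ± 1.10 and 26.2% ± 3.41 in that order. RARB held 1.71% ± 0.370, 1.45% ± 0.0876, 1.64% ± 1.03 and 6.33% ± 2.09, and its 3.91% to 7.58% in SW620 did not overlap its 0.771% to 2.77% in SW480. The sum itself was 55.2 ± 2.88 CPM per kb in PEO4 control, 53.8 ± 5.65 after TGF-β, 25.4 ± 4.42 in SW480 and 10.2 ± 2.69 in SW620. The larger share of RARB in SW620 went with lower RARA and RARG, while RARB itself did not pass the test between the lines.

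**Figure D2:**
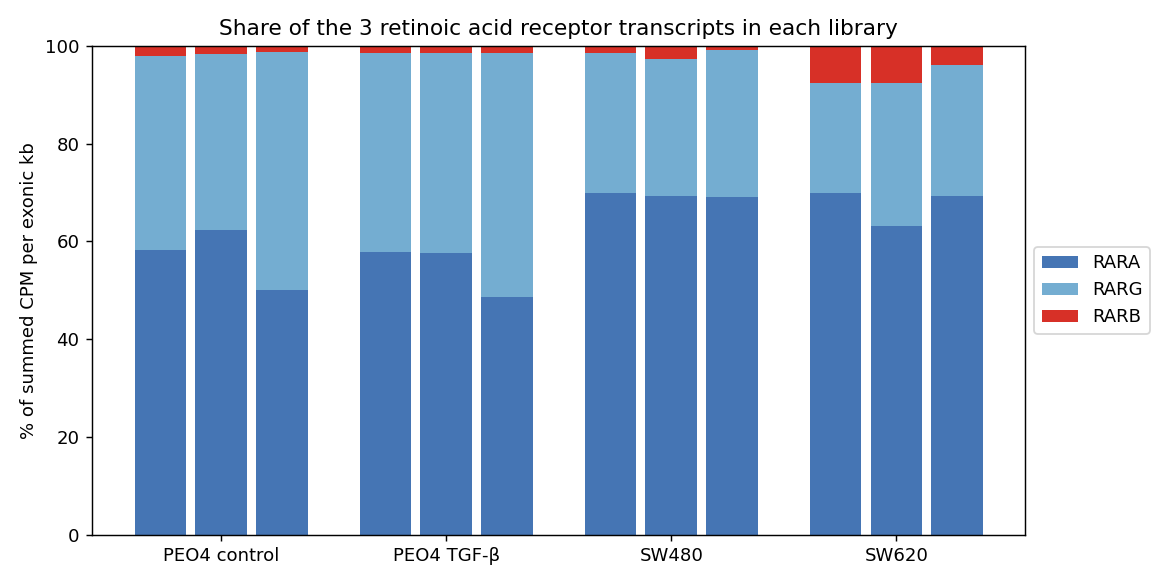
Share of RARA, RARG and RARB in their summed CPM per exonic kb, in percent, 1 stacked bar per library. RARA takes the largest part in 11 of the 12 libraries, and RARB is 3.91% to 7.58% in SW620 against at most 2.77% elsewhere.

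SW620 was set against SW480 to see what sets the line from the metastasis apart from the line of the primary tumour. Of the 9 members tested, 7 were lower in SW620, 0 were higher and 2 did not pass, where 17.0% of the 20941 genes tested were lower and 13.5% higher (30.5% called in all; edgeR's quasi-likelihood test, Benjamini-Hochberg adjusted p under 0.05, two-sided). The median log2 fold change of the 9 was -1.33, against 0.03 over all genes. The 7 were VDR, RXRA, STRA6, CRABP2, RARA, RARG and CYP26A1. The lines did not overlap for 8 of the 9, against 42.7% of all genes.

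Among the vitamin D genes, VDR fell by 2.30 ± 0.23 on the log2 scale (SE), 4.93-fold, with an edgeR adjusted p of 9.68e-05. RXRA fell by 0.71 ± 0.18 (edgeR's adjusted p 0.0170). The RXRA call was lost without SW480 replicate 1 (edgeR's adjusted p 0.109), without SW480 replicate 3 (0.0895) and without SW620 replicate 1 (0.129). CYP27B1 had a log2 fold change of -0.43 ± 0.25 and did not pass (edgeR's adjusted p 0.241), although every SW480 library lay above every SW620 library. The approximate 95% interval ran from -0.92 to 0.06.

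Among the retinoid genes, the degrading enzyme and the carrier protein had the largest fitted changes. CYP26A1 fell by 4.79 ± 0.58 (27.7-fold, edgeR's adjusted p 0.000299), with 1 to 6 counts left in SW620. CRABP2 fell by 3.44 ± 0.38 (10.8-fold, edgeR's adjusted p 0.000179), and its value was -3.86 without SW620 replicate 3, the library with the PEO4-like reads. RARG fell by 1.45 ± 0.22 (adjusted p 0.00123) and RARA by 1.33 ± 0.22 (adjusted p 0.00195), both in edgeR's test. STRA6 fell by 1.24 ± 0.18 (2.37-fold, edgeR's adjusted p 0.000843). RARB had a log2 fold change of 0.68 ± 0.43 and did not pass (edgeR's adjusted p 0.282). The calls of VDR, STRA6, CRABP2, RARA, RARG and CYP26A1 held in every alternative that gave a value.

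Other genes of both pathways were described in 7 lists of 65 genes. In SW620, 16 of the 45 tested were lower, 5 were higher and 24 did not pass, with a median log2 fold change of -0.28. Over all 20941 genes tested, 17.0% were lower and 13.5% higher. The counts by list that follow are small and are to be read beside these shares. Of the vitamin D supply genes 2 of 5 were lower: LRP2, the endocytic receptor that takes up vitamin D with its binding protein, fell by 7.07 ± 0.51 from 652, 627 and 804 counts to 9, 7 and 0 (edgeR's adjusted p 1.63e-05), and its value was -6.46 without SW620 replicate 3. CYP27A1, a hydroxylase that can act on vitamin D, fell by 1.63 ± 0.26. Of the receptor partners and coregulators 1 of 7 was lower, the coactivator NCOA1 (-1.02 ± 0.17, edgeR's adjusted p 0.00170).

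Of the known vitamin D target genes, 4 of 9 were lower and 0 higher. IGFBP3, which binds insulin-like growth factors, fell by 4.98 ± 0.26 (edgeR's adjusted p 4.06e-06), from 91.0 ± 24.2 to 2.81 ± 0.589 CPM (SD, n = 3). CST5, the gene of the protease inhibitor cystatin D, had 73 to 76 counts in SW480 and 0, 0 and 3 in SW620 and fell (edgeR's adjusted p 0.000331), with too few counts left for a fold. OSGIN1 fell by 1.26 ± 0.29 (edgeR's adjusted p 0.00995), and this call held in 14 of 16 settings. The remaining one, CLDN2, was named after its values were seen and had at most 16 counts in any library.

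Among the carriers, the fatty acid and retinoic acid carrier FABP5 rose by 1.09 ± 0.28 (edgeR's adjusted p 0.0173), a call that held in 13 of 16 settings. Of 9 synthesis and storage genes, 3 were lower and 2 higher. The lower ones were the retinal dehydrogenase ALDH1A3 (-3.78 ± 0.18, edgeR's adjusted p 2.92e-06), the retinol dehydrogenase SDR16C5 (-3.61 ± 0.42) and the retinal reductase DHRS3 (-2.40 ± 0.24). The higher ones, named after their values were seen, were the retinol dehydrogenase RDH10 (1.78 ± 0.22) and the carotene-cleaving enzyme BCO1, with 1, 1 and 3 counts in SW480 and 17, 29 and 31 in SW620 (edgeR's adjusted p 0.00198).

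Neither CYP26B1 nor CYP26C1, the other retinoic acid hydroxylases, passed (unadjusted p under 0.05 in 0 of the 2, and 0 in DESeq2). Of 9 known retinoic acid target genes, 5 were lower and 2 higher, with a median of -0.93. TGM2, tissue transglutaminase, fell by 7.10 ± 0.39 (edgeR's adjusted p 5.19e-06), from 3063 ± 1033 to 21.7 ± 3.92 CPM (SD, n = 3). HOXB4 fell by 2.04 ± 0.30, and MEIS2 fell by 1.58 ± 0.31. Named after their values were seen, HOXA5 was also among the lower ones, and RARRES2 and NRIP1 were the higher ones.

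**Figure D3:**
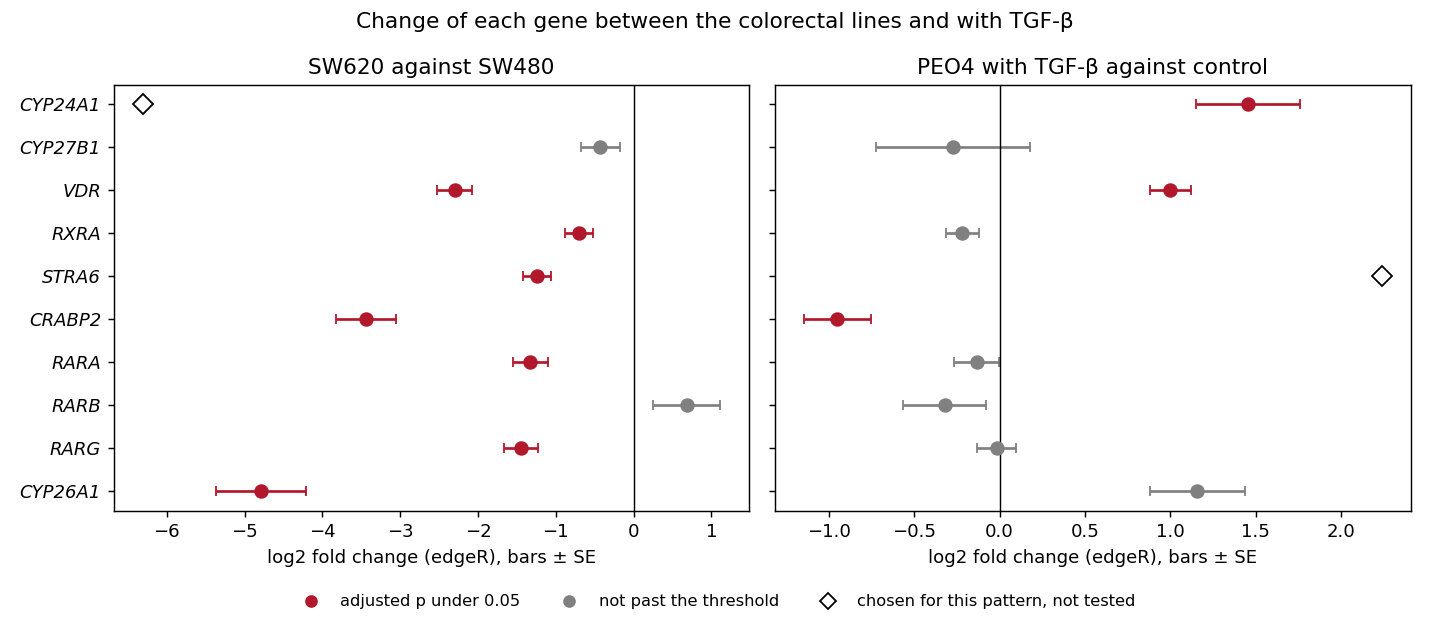
Log2 fold change with SE of each gene for SW620 over SW480 and for TGF-β over control in PEO4, with red for an adjusted p under 0.05, grey for none and open diamonds for the 2 genes described without a test. In the SW lines 7 of the 9 tested genes lie below 0 and pass, while with TGF-β 3 pass.

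TGF-β-treated and control PEO4 were compared to see what 6 days of the cytokine changed. Of the 9 members tested, 2 were higher (CYP24A1 and VDR), 1 was lower (CRABP2) and 6 did not pass, where 2.26% of 19064 genes were called, 1.27% higher and 0.991% lower. The median log2 fold change of the 9 was -0.13, against -0.02 over all genes. Groups did not overlap for 4 of the 9, against 19.9% of all genes.

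VDR rose by 1.00 ± 0.12 on the log2 scale, 2.00-fold (edgeR's adjusted p 0.00520), and passed in each of its 16 settings. CYP24A1 rose by 1.45 ± 0.30, 2.74-fold (edgeR's adjusted p 0.0454). That call was lost when control replicate 2 (edgeR's adjusted p 0.202), control replicate 3 (0.105) or TGF-β replicate 1, 2 or 3 (0.162, 0.124 and 0.0991) was left out, and without control replicate 1, the highest control, the change was 2.01. RXRA had a log2 fold change of -0.22 ± 0.10 (edgeR's adjusted p 0.298) and CYP27B1 one of -0.27 ± 0.45 (edgeR's adjusted p 0.809). CYP27B1 had 17 counts at most in these libraries, so a 2-fold decrease lies within its approximate 95% interval (-1.16 to 0.61).

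CRABP2 fell by 0.95 ± 0.20, 1.93-fold (edgeR's adjusted p 0.0444). The call was lost with all 12 libraries in 1 model (edgeR's adjusted p 0.312) and without control replicate 2 (0.211), control replicate 3 (0.0856), TGF-β replicate 1 (0.128) or TGF-β replicate 3 (0.116). CYP26A1 had a log2 fold change of 1.16 ± 0.28 and did not pass (edgeR's adjusted p 0.0725), although its groups did not overlap, and it passed in DESeq2 (adjusted p 0.0297) and with no count filter in edgeR (0.0151). The receptors RARA (-0.13 ± 0.13), RARB (-0.32 ± 0.25) and RARG (-0.02 ± 0.11) did not pass, with edgeR adjusted p from 0.560 to 0.961. The sign of RARG changed in 4 alternatives.

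Of 43 tested genes of the 7 lists, 0 passed with edgeR, 15 had an unadjusted p under 0.05, and 8 passed in DESeq2, with a median log2 fold change of 0.01. Over all 19064 genes tested, 3173 had an unadjusted edgeR p under 0.05. The number of all genes that DESeq2 called is given in the section on processing at the end. With limma-voom 0 passed. The 8 genes of DESeq2 are named after their values were seen. Those with a negative log2 fold change were LRP2 (-2.28 ± 0.64, DESeq2's adjusted p 0.0174), ATP2B1 (-0.48 ± 0.13), NCOA1 (-0.36 ± 0.09) and NCOA2 (-0.32 ± 0.08). Those with a positive one were SPP1 (1.14 ± 0.29), DHCR7 (0.35 ± 0.08), CYP26B1 and TGM2. CYP26B1 had a log2 fold change of 1.04 ± 0.28 (edgeR's adjusted p 0.101, DESeq2's 0.00937), and TGM2 one of 0.80 ± 0.21 (edgeR's adjusted p 0.0958, DESeq2's 0.00235). TGM2 had 1074 to 1516 counts in control and 1506 to 3280 with TGF-β.

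**Figure D4:**
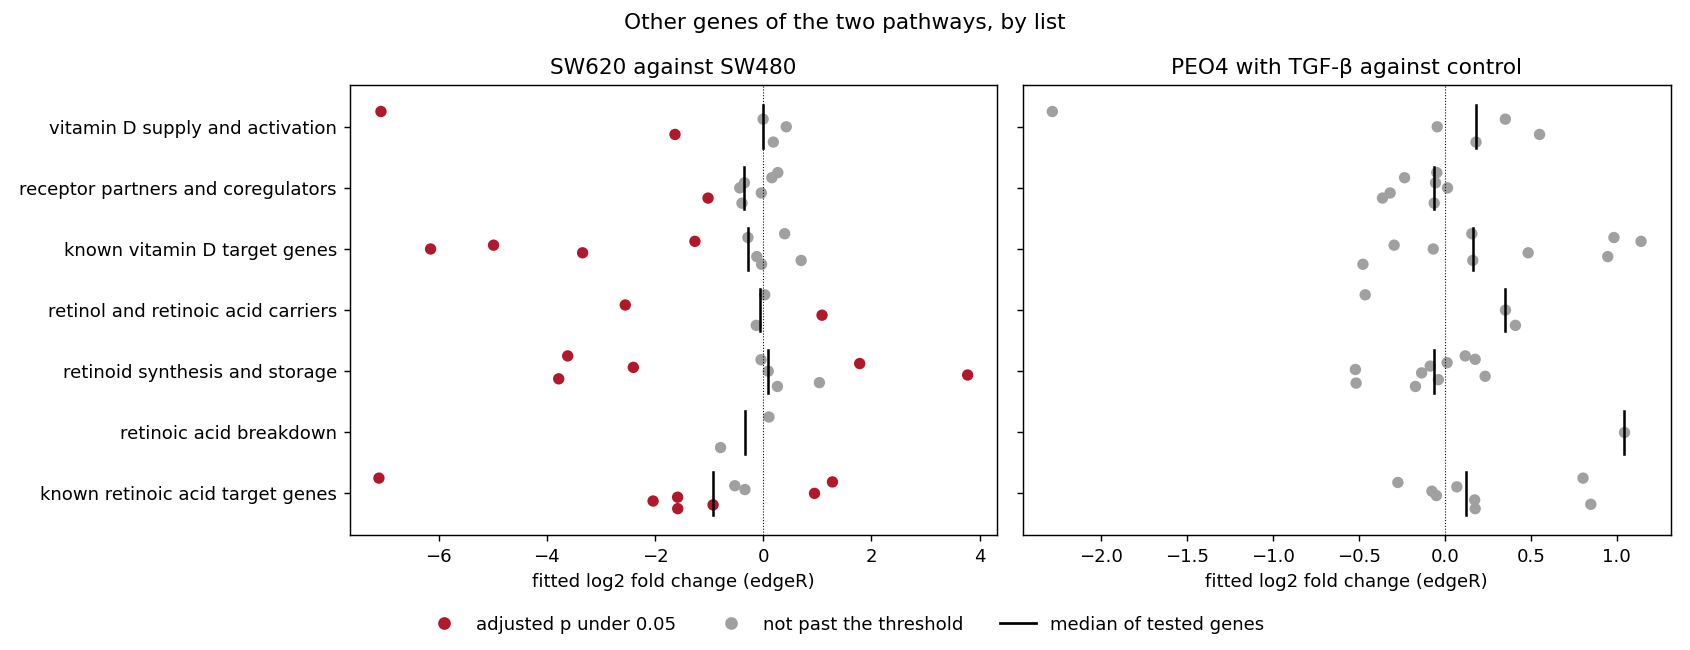
Log2 fold change of the tested genes of the 7 pathway lists for SW620 over SW480 and for TGF-β over control in PEO4, as points by list, with red for an adjusted p under 0.05 and a line at each list's median. With TGF-β no list gene passes, while in SW620 against SW480 16 of 45 are lower and 5 higher. Over all genes tested between the SW lines, 17.0% are lower and 13.5% higher.

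The untreated PEO4 libraries were set against the mean of the 2 SW lines on the log scale, which shares its PEO4 control and SW libraries with the comparisons above. Of the 8 members tested, 4 were higher in PEO4, 3 lower and 1 did not pass, where 58.0% of 22936 genes were called, 28.9% higher and 29.1% lower. The median log2 fold change was 0.71, against -0.08 over all genes. CRABP2 was 3.27 ± 0.26 higher (9.67-fold, edgeR's adjusted p 3.68e-07), RARG 2.37 ± 0.17 higher (adjusted p 1.93e-07 in edgeR) and RARA 2.83-fold higher (adjusted p 8.82e-06 in edgeR). RARB was 0.95 ± 0.33 higher (edgeR's adjusted p 0.0254). Its call was lost with upper-quartile scaling (0.0629), total counts only (0.155), without control replicate 1 (0.122) or 2 (0.0557), without SW480 replicate 3 (0.0675) and against SW620 alone (0.295), all adjusted p in edgeR.

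CYP27B1 was lower in PEO4, at -3.07 ± 0.32 (8.42-fold, edgeR's adjusted p 4.04e-06), as was RXRA at -1.04 ± 0.15 (edgeR's adjusted p 7.91e-05). VDR was lower at -1.27 ± 0.19 (edgeR's adjusted p 0.000101), but against SW620 alone the value was -0.26 (edgeR's adjusted p 0.230). CYP26A1 did not pass (0.48 ± 0.40, edgeR's adjusted p 0.327), and this mean joins 2 opposite values: -1.95 against SW480 (adjusted p 0.000390 in edgeR) and 2.72 against SW620 (0.00430). STRA6, described only, was 30.4-fold lower in PEO4 (log2 fold change -4.93), and CYP24A1 lay between the 2 SW lines, at -3.41 against SW480 and 2.80 against SW620.

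Of 50 tested list genes, 22 were higher in PEO4, 11 lower and 17 did not pass. These 33 calls of 50 are a share near the 58.0% of all genes called, and nothing particular to the lists is read from them. Each call is against the mean of the SW lines, and for 5 of the called genes the level in PEO4 control lay between those of the 2 lines: IGFBP3, CST5, SDR16C5, RDH10 and TGM2, named after their values were seen. IGFBP3 had 50.7 CPM in PEO4 control, 91.0 in SW480 and 2.81 in SW620. TGM2 had 69.4, 3063 and 21.7 CPM, CST5 had 2.82, 3.95 and 0.0472 CPM, and SDR16C5 had 2.59, 3.14 and 0.246 CPM in the same order. RDH10 had 15.8, 14.5 and 49.0 CPM. Vitamin D target genes were higher in 7 of 11 and lower in 0, IGFBP3 and CST5 included, and the 7 hold the thrombin cofactor THBD (6.72 ± 0.37), SPP1 (3.54 ± 0.42) and the calcium pump ATP2B1 (2.81 ± 0.14). The supply genes were lower in 3 of 5, CYP2R1, a vitamin D 25-hydroxylase (-1.32 ± 0.16), CYP27A1 (-1.29 ± 0.25) and CUBN, the last named after its values were seen. Of 7 receptor partners and coregulators, 4 were higher, among them the coactivators NCOA2 (2.26 ± 0.12) and NCOA3 (1.73 ± 0.12), and RXRB. The corepressor NCOR1 was lower. RXRB and NCOR1 were named after their values were seen.

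In the retinoid lists, 6 of 11 synthesis and storage genes were higher and 2 lower. LRAT, which esterifies retinol for storage, had 79 to 120 counts in PEO4 control and 0 to 2 in the SW libraries (edgeR's adjusted p 6.82e-08). DHRS3 was 3.71 ± 0.20 and DGAT1 2.53 ± 0.13 higher on the log2 scale, and CYP26B1 2.35 ± 0.33 higher. Of 10 retinoic acid target genes, 4 were higher and 4 lower, TGM2 with its opposite values among the lower. RARRES3 was 3.92 ± 0.40 higher, and HOXA5 lay at -4.82 ± 0.37. Each of these genes named by rule had an edgeR adjusted p under 0.05. With totals in place of TMM the median of all genes moved by -0.28, and calls became 5176 higher and 8630 lower (37.5% higher, against 49.8%), but no member changed sign.

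The genes whose log2 CPM over the 12 libraries was most like that of CYP24A1, among 13061 genes, were LZTS1 (Pearson r 0.99), KRT8P12 (0.99) and REPS2 (0.99). LZTS1 had mean levels of 22.2 CPM in SW480, 5.57 in PEO4 with TGF-β, 1.73 in PEO4 control and 0.312 in SW620, the same order of groups as CYP24A1. For STRA6 they were RTN2 (0.98), NAV2 (0.98) and THRA (0.98), and THRA, a thyroid hormone receptor gene, had 61.0 CPM in SW480, 48.1 in SW620, 25.2 in PEO4 with TGF-β and 16.0 in PEO4 control, also the order of STRA6. These r values describe 12 libraries in 4 groups and largely follow the 4 group means.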

How the data were processed

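The authors deposited whole-number counts per gene for 12 libraries of rRNA-depleted total RNA. Reads were processed with Trimmomatic 0.36, STAR 2.5.2b and featureCounts (Subread 1.5.2) on GRCh38, per the submitters' processing notes; the annotation and strand use are not given in the sources used here. The deposited tables of differential expression were not used.

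Fits used only the libraries of the comparison, in edgeR 4.0.16 under R 4.3.3 (filterByExpr, TMM, quasi-likelihood test, two-sided, Benjamini-Hochberg over all genes tested, threshold 0.05). The SE is the log2 fold change over the square root of F, and the 95% interval is approximate. Printed CPM used TMM factors over all 12 libraries. Positions and exon lengths came from GENCODE 29, possibly not the one counted on, and isoform use changes values per kb. Per the labels replicates are biological, and p-values measure the spread between them; an exact permutation test of 3 against 3 cannot go below 0.1. Floors cover counting error only.

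Alternatives were DESeq2 1.42.0, limma-voom (limma 3.58.1), scaling by RLE, by upper quartile or by totals alone, dropping the count filter or asking for at least 10 counts in every library, all libraries in 1 model, a replicate block, leaving out each library and, for PEO4, each SW line alone. Scripts were tested on simulated counts. Of 100 genes given a log2 change of 1, 29 were called in the SW setting and 58 in the TGF-β setting. Of 100 given a log2 change of 2, 70 and 84 were called. All other genes of the 20941 and 19064 were left unchanged, whereas 30.5% and 2.26% were called in the data. Adjusted p-values depend on how many genes change, so these recoveries do not carry over to the fits of the data. A gene that did not pass may still differ.

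The members and lists were chosen with earlier results of these data known. Named were all 10 members and, per list and comparison, up to 3 genes with the largest log2 fold change among those with an adjusted p under 0.05 and at least 2 CPM in the higher group, plus the 3 genes most correlated with CYP24A1 and STRA6 among those with at least 5 CPM in 3 libraries. A few genes that this rule would name are left out of the text. The 7 lists are vitamin D supply and activation, receptor partners and coregulators, known vitamin D target genes, retinol and retinoic acid carriers, retinoid synthesis and storage, retinoic acid breakdown, and known retinoic acid target genes.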

Additional observations from a re-analysis of the deposited data

How the results depend on the processing

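Of the alternatives to values of single members, 458 kept their direction and side of the threshold. For values without a test, that count takes those that moved by less than the pooled SD of log2 CPM within groups. A further 20 lost their call, 4 gained one, 5 moved and 8 changed sign. With TGF-β, CYP27B1 ranged from -0.51 to 0.13 with 1 library left out, positive without control replicate 2. RARG became 0.0100 with no count filter, 0.0136 with all 12 libraries in 1 model, 0.0295 without TGF-β replicate 1 and, as its range with 1 library left out, -0.11 to 0.12 (without control replicate 3). In PEO4 against the SW lines, CYP24A1 ranged from -0.78 to 0.0359 (without control replicate 2) and was 2.80 against SW620 alone, and CYP26A1 became -1.95 against SW480 alone. On unscaled library totals the mean CPM with TGF-β was 14.8 for CYP24A1, 37.6 for VDR, 31.3 for RXRA, 2.52 for RARB and 105 for RARG. It was 5.62 for CYP27B1 and 149 for STRA6 in SW620, and 345 for STRA6 in SW480.

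Genes called in the SW comparison numbered 6385, and 4253 to 7419 with 1 library left out, lowest without SW480 replicate 1. With TGF-β the 431 calls became 967 in DESeq2, 1457 with no filter, 165 with all 12 libraries in 1 model, and 72 to 1080 with 1 library left out. Members called there ranged from 1 to 3 with 1 library left out. List genes called there became 8 in DESeq2, 11 with no filter and 0 to 7 with 1 library left out. In PEO4 against the SW lines, a minimum of 10 counts in every library left fewer list genes to test and 21 called. Causes were not tested where none is given.

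The replicate numbers are shared across groups, but same-numbered libraries did not all deviate together (correlations of 0.0158, 0.67 and 0.57 in the SW lines, and 0.29, -0.15 and 0.48 in PEO4), and SW480 replicate 1 correlated best with SW620 replicate 3 (0.27), so pairing was not established. With the replicate block, calls numbered 10667 in the SW lines and 2102 with TGF-β, 14 list genes passed with TGF-β, and CYP26A1 did too (edgeR's adjusted p 0.0225). Depth limits CYP27B1, RARB and CYP26A1, with at most 137 counts in any library.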
